A study of Mus musculus with 12 samples.

Results

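The ionotropic and metabotropic receptors for glutamate, GABA and glycine were followed across 4 mouse genotypes in RNA of the spinal cord. A gene was taken as a member if it was annotated as protein coding and its symbol named an AMPA, kainate, NMDA, delta or metabotropic glutamate receptor subunit (Gria, Grik, Grin, Grid and Grm), a GABA-A subunit (Gabra, Gabrb, Gabrg, Gabre, Gabrp, Gabrq and Gabrr), a GABA-B subunit (Gabbr1 and Gabbr2) or a glycine receptor subunit (Glra and Glrb). By this rule 51 of the 45906 genes in the count table were members: 4 AMPA, 5 kainate, 7 NMDA, 2 delta, 8 metabotropic, 18 GABA-A, 2 GABA-B and 5 glycine receptor genes. The rule used symbols alone and no measured value. It leaves out the delta subunit of the GABA-A receptor, whose gene lies close to Plekhg5. Plekhg5 encodes a guanine nucleotide exchange factor that acts in autophagy in motoneurons (MNs), and the study asked how its absence alters a mouse model of amyotrophic lateral sclerosis.

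Total RNA of the spinal cord was sequenced from 12 mice aged 7 months on a C57BL/6 background, with 3 mice in each of 4 genotypes. Plekhg5+/+ mice had both wildtype Plekhg5 alleles and no transgene, and Plekhg5-/- mice were deficient for Plekhg5. Plekhg5+/+ SOD1-G93A mice carried the transgene of the "low copy" SOD1-G93A line, which expresses human SOD1 with a mutation linked to the disease, and Plekhg5-/- SOD1-G93A mice carried it without Plekhg5. Sex was not considered in the study, which states that it was evenly spread over its experiments.

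Glutamate is the main fast excitatory transmitter of the spinal cord. It opens AMPA, kainate and NMDA receptors, which are tetramers of subunits encoded by separate genes, and it activates metabotropic receptors that signal through G proteins. Inhibition in the spinal cord uses both GABA and glycine: GABA-A and glycine receptors are pentameric chloride channels, and GABA-B receptors are obligate dimers that signal through G proteins. Motoneurons receive all these inputs, and the subunits that a neuron makes set the speed, the permeability and the transmitter sensitivity of its synapses.

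The libraries held between 30415643 and 38743628 counts. Plekhg5 was at 22.95 ± 3.08 CPM (the count scaled to the TMM library size, mean ± SD, n = 3) in Plekhg5+/+ and 22.4 ± 2.19 CPM in Plekhg5+/+ SOD1-G93A mice, and at 3.985 ± 0.712 and 4.26 ± 0.413 CPM in the corresponding Plekhg5-/- mice. In mice with the transgene, human SOD1 was at 4993 ± 612 CPM with and 5001 ± 97.1 CPM without Plekhg5, and at 0.959 ± 0.75 and 2.64 ± 2.46 CPM in mice without the transgene. Both genes thus followed the labels. Y-linked transcripts were present in 3, 2, 2 and 1 of the 3 libraries of the 4 genotypes in the order given above. By this measure sex was not even over the genotypes of these libraries and is partly mixed with genotype. Defining markers of neurons, MNs, astrocytes, microglia, oligodendrocytes and their progenitors were all detected, as in whole spinal cord.

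Levels of different subunits were compared as CPM per kilobase of summed exon length. In Plekhg5+/+ mice the highest level was that of Glrb, the beta subunit shared by most synaptic glycine receptors, at 119 ± 4.08 CPM per kb. Gabbr1, the GABA-B subunit that binds GABA, followed with 81.2 ± 2.58, Grin1, the subunit that every NMDA receptor contains, with 73.1 ± 7.16, and Glra1, the alpha subunit of the adult glycine receptor, with 54.7 ± 29.3 CPM per kb. Glrb lay above 97.6% of the 15732 protein-coding genes tested. Gabbr1 was above Grin1 in each of the 3 Plekhg5+/+ libraries and in all 12 libraries. The leading GABA-A subunit was Gabra3 with 39.4 ± 1.6 CPM per kb. Among AMPA receptor subunits, Gria4 was highest with 35.8 ± 3.37 CPM per kb. The leading kainate, delta and metabotropic members were Grik5 with 7.91 ± 0.414, Grid1 with 8.10 ± 0.649 and Grm5 with 13.7 ± 1.02 CPM per kb.

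**Figure D1:**
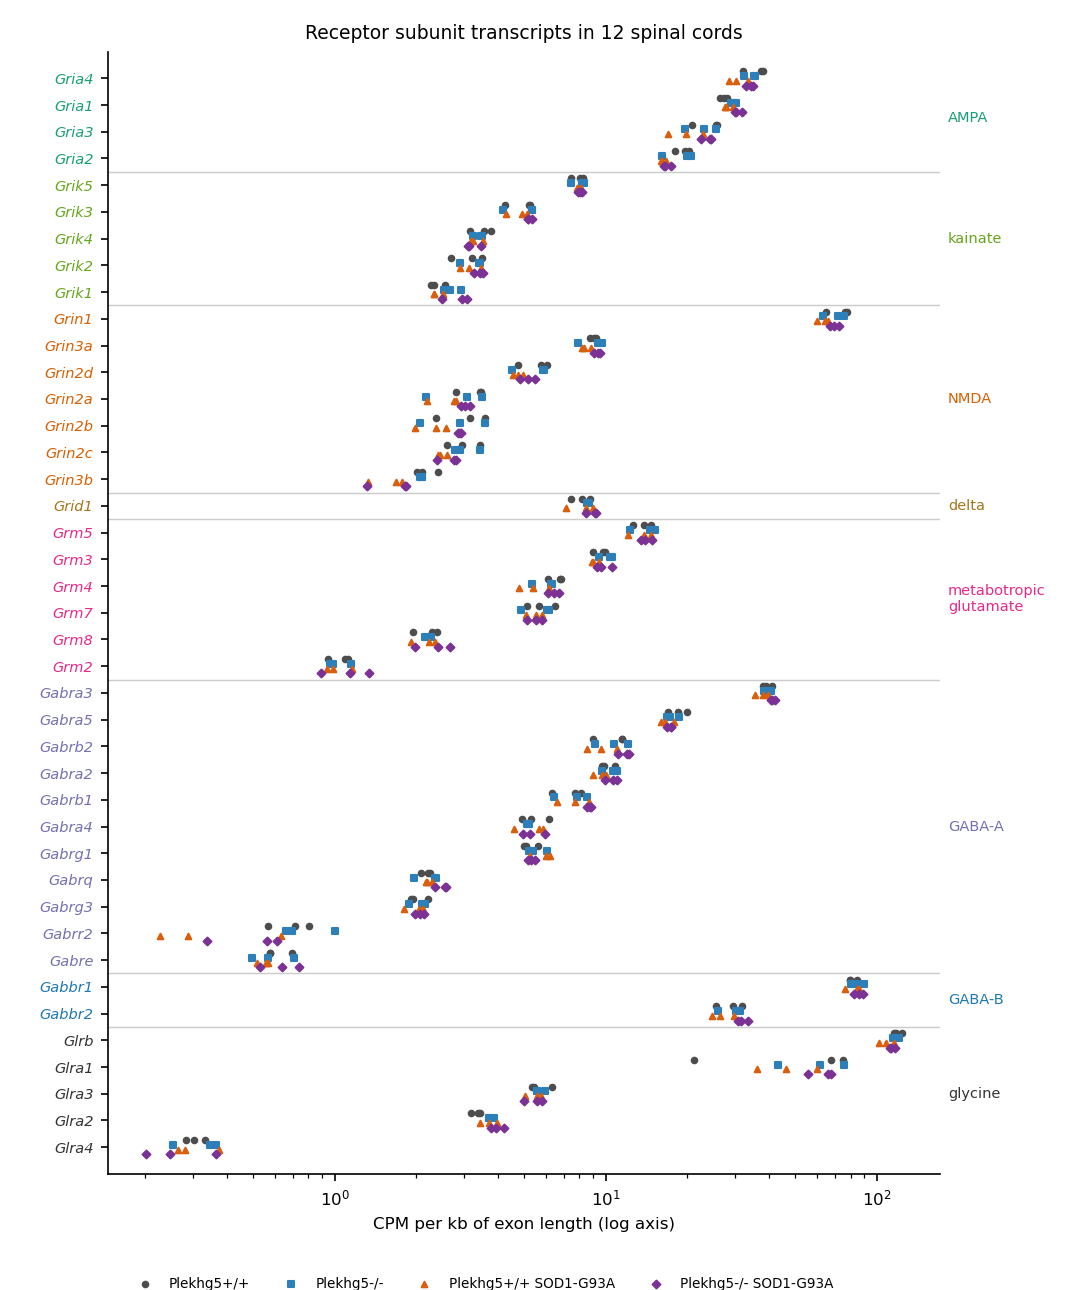
Level of 41 tested receptor genes in each of 12 spinal cord libraries, in CPM per kb of exon length on a log axis, by receptor family, with genotypes distinguished by colour and marker and 3 mice per genotype. Levels span from under 1 CPM per kb for Glra4, Gabre and Gabrr2 to 119 CPM per kb for Glrb in Plekhg5+/+ mice, the points of the 4 genotypes lie close together for most genes, and Glra1 has the widest scatter among the abundant members.

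Summed over its members, the GABA-A family had 185.5 ± 8.06 CPM per kb in Plekhg5+/+ mice and the glycine receptor family 183 ± 30.3 CPM per kb, which did not differ beyond their SD. GABA-B, AMPA and NMDA receptor transcripts followed with 110.2 ± 5.38, 106 ± 7.24 and 99.0 ± 9.46 CPM per kb, again with neighbours within the SD of each other. Metabotropic, kainate and delta receptor transcripts were lower, with 45.4 ± 3.81, 21.8 ± 1.76 and 11.2 ± 0.737 CPM per kb. In Plekhg5+/+ SOD1-G93A mice the sums were 174 ± 8.59 for GABA-A, 165 ± 16.7 for glycine, 95.2 ± 5.43 for AMPA and 85.6 ± 4.13 CPM per kb for NMDA receptors. In Plekhg5-/- SOD1-G93A mice they were 191 ± 2.97, 187 ± 8.14, 105 ± 0.642 and 94.5 ± 3.06 CPM per kb, close to the Plekhg5+/+ values.

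The exon length includes untranslated sequence, and a gene with a long 3′ end is ranked lower per kilobase than by CPM. Gria2, with 15409 bases of exon sequence, had the 4th highest CPM of all members but rank 12 per kilobase, and Grin2b, with 24886 bases, had rank 19 by CPM and rank 36 per kilobase. Of the 10 highest members per kilobase, 9 were also among the 10 highest by CPM.

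At the other end, 5 members had too few counts to be tested: Gabrr1, Gabrr3, Gabrp, Gabra6 and Grm6. Gabra6, known from cerebellar granule cells, had 0 counts in 9 of 12 libraries and 13 counts in all, of which 10 came from 1 Plekhg5+/+ SOD1-G93A library. Grm6, the receptor of retinal ON bipolar cells, had 3 counts in 2 libraries, and Gabrp had 10 counts in 4 libraries. Gabrr1 and Gabrr3, which encode rho subunits known from the retina, had 46 and 26 counts in all. A count of 0 allows 3 counts, or between 0.0774 and 0.0986 CPM at the depth of these libraries, which covers counting error only. The remaining rho subunit gene, Gabrr2, passed the filter with 2.00 ± 0.340 CPM in Plekhg5+/+ mice.

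Promoter sequences of RefSeq (GRCm38.p6) were found for 36 of the 51 members, and 4 of them are shown. Each is the 250 bases before the start annotated for that promoter, 5′ to 3′ on the strand of the gene. Positions count from that start. For Gria2 and Grin3b the gene in the count table starts further upstream, at 80804227 and 79970397, so the bases shown lie within the gene. Gria2 and Grin3b are shown because they had the smallest p-values of all members for the SOD1-G93A transgene, Gabbr1 as an abundant member and Gabra6 as a member at 0 counts in most libraries. Capitals mark a match to one of 2 motifs searched on both strands: the core of the RE1 element, bound by the repressor REST and searched as AGCACC and GGACAG with any 2 bases between them, and the TATA box TATAAA.
Gria2 (chr3:80802836-80803085, minus strand): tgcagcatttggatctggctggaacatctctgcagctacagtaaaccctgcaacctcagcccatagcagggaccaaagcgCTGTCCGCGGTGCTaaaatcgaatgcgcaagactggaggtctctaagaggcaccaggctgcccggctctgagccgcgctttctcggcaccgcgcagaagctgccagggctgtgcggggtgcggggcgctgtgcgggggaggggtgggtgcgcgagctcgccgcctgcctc
Grin3b (chr10:79970474-79970723, plus strand): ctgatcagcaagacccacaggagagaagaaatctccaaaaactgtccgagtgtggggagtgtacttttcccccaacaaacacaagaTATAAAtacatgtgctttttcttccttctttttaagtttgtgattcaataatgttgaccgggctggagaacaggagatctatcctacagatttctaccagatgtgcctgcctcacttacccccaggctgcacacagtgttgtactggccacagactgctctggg
Gabbr1 (chr17:37045716-37045965, plus strand): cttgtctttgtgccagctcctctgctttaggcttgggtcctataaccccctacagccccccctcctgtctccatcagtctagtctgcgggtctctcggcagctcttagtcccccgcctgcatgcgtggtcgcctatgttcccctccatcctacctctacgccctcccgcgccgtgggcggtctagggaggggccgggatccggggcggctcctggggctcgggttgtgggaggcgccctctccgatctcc
Gabra6 (chr11:42321073-42321322, minus strand): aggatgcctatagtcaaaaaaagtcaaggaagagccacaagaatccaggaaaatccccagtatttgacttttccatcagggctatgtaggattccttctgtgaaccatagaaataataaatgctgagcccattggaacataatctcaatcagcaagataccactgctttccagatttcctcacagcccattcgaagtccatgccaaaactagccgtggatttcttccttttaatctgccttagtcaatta

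In the Gria2 promoter the RE1 core was on the opposite strand, written CTGTCCGCGGTGCT on the strand shown, from base −170 to base −157. This core was rare, with 17 matches among 32851 promoter windows of 300 bases (0.0517%), and Gria2 was the one member with a match. The TATA box was in 13.6% of all windows, and in those of Grin3b, Gabrb2, Gabra3 and Glra2 among the members. In Grin3b it lay from base −164 to base −159, far upstream of the usual place of a TATA box before the start used. The number of CpG dinucleotides in the window of 300 bases was 26 for Gria2, 18 for Gabbr1, 3 for Grin3b and 2 for Gabra6. Over the members with at least 1 CPM per kb in Plekhg5+/+ mice the median was 17.5 (n = 28 promoters), over those under 1 CPM per kb it was 3.5 (n = 8), and over all genes in the table it was 7.0 (n = 27025). Several members did not follow this pattern. Gabra3 had 0 CpG in its window and the highest level of all GABA-A subunits. Gabrg1 had 3 CpG at 5.24 CPM per kb, and Gabre had 24 CpG at 0.616 CPM per kb.

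The make-up of each receptor class was then computed as the share of its summed CPM per kb. AMPA receptor transcripts of Plekhg5+/+ mice were made of 33.7 ± 1.02% Gria4, 25.7 ± 1.96% Gria1, 22.5 ± 1.15% Gria3 and 18.1 ± 0.211% Gria2, the subunit whose edited form keeps the channel closed to calcium. The share of Gria2 was 17.9 ± 1.15% in Plekhg5-/-, 17.1 ± 0.919% in Plekhg5+/+ SOD1-G93A and 16.0 ± 0.649% in Plekhg5-/- SOD1-G93A mice. That of Gria1 was 28.1 ± 1.54%, 29.8 ± 1.91% and 29.2 ± 1.03% in the same order. Single libraries ranged from 15.5% to 19.0% for Gria2 and from 24.1% to 31.1% for Gria1, and with 3 mice per genotype an exact permutation test of a share could not give a p-value under 0.10.

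Among the GluN2 subunits of the NMDA receptor, Grin2d made up 37.4 ± 0.758% in Plekhg5+/+ mice, Grin2a 21.9 ± 0.551%, Grin2b 20.4 ± 1.80% and Grin2c 20.3 ± 1.67%. Grin2c had 21.8 ± 5.62% in Plekhg5-/- mice, where 1 library reached 28.2%. Gabra3 was the main alpha subunit of the GABA-A receptor with 44.5 ± 0.717%, and Gabra5 and Gabra2 made up 20.8 ± 1.18% and 11.4 ± 0.882%. Over the 12 libraries the share of Gabra3 stayed between 43.8% and 45.9%. Glra1 made up 82.2 ± 10.4% of glycine receptor alpha subunit transcripts in Plekhg5+/+ mice and 86.6 ± 1.38% in Plekhg5-/- SOD1-G93A mice. Grm5 was the main metabotropic member with 30.1 ± 0.535%, followed by Grm3 with 21.1 ± 0.628%.

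**Figure D2:**
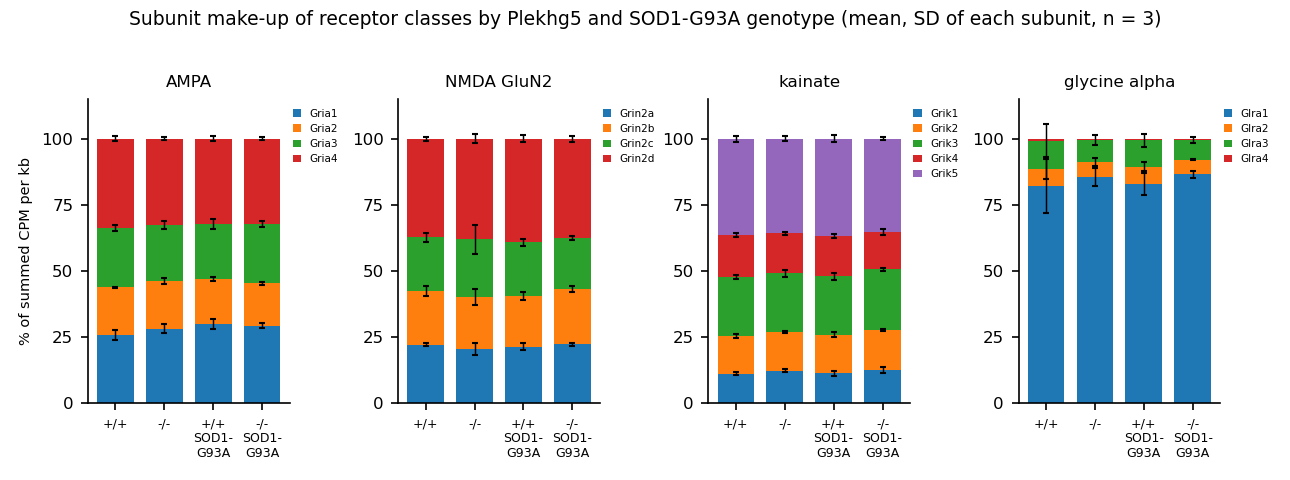
Share of each subunit in the summed CPM per kb of its receptor class, in percent, for the 4 genotypes, as stacked means with the SD of each subunit over 3 mice. The main subunit of each class is the same in the 4 genotypes: Gria4 (33.7% in Plekhg5+/+ mice), Grin2d (37.4%), Grik5 (36.3%) and Glra1 (82.2%).

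The SOD1-G93A transgene was first examined in mice with Plekhg5. No receptor gene passed the test between Plekhg5+/+ SOD1-G93A and Plekhg5+/+ mice: 0 of the 46 members tested had an adjusted p under 0.05 with edgeR and 0 with DESeq2, against 2.47% of all 20155 genes tested with edgeR and 5.91% with DESeq2. At an unadjusted p under 0.05, 11 of the 46 members were lower and 0 higher, where 7.51% of all genes were lower and 10.6% higher. Among the 11 were Gria2, Gria3 and Gria4 of the AMPA receptor, Grin1, Grin2a, Grin2c and Grin3b of the NMDA receptor, Grm4, Gabrr2 and Glrb. This count rested on single libraries: it was 16 without the first Plekhg5+/+ library, 6 without the second, 3 without the third, 6 without the first Plekhg5+/+ SOD1-G93A library and 3 without the third. In whole spinal cord, fewer cells of a type and less RNA per cell cannot be told apart.

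The median log2 fold change of the members was −0.075, beside −0.00099 over all genes, with 34 members below and 12 above 0. Libraries were also scaled to the summed counts of 12 neuronal markers. The median of all genes then moved to 0.25 and that of the members to 0.17, so that the direction turned. The sum gives most weight to the most abundant markers, and the median marker changed by −0.14, less than this shift. Relative to the median of all genes the members lay at −0.074 with the usual scaling and at −0.080 with the neuronal one. In both, 34 of 46 were under that median. A change of scaling moves all genes of a comparison by nearly the same amount, so this position could hardly change and adds no support. The NMDA family had a median of −0.27 and the AMPA family of −0.23, with 7 of 7 and 3 of 4 members below 0, or 4 of 7 and 1 of 4 with the neuronal scaling. All 7 tested metabotropic receptors were also below 0 (6 of 7 were above with the neuronal scaling), at a median of −0.071. The medians of the kainate and delta families were 0.0014 and 0.035, and that of the GABA-A family was −0.080.

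**Figure D3:**
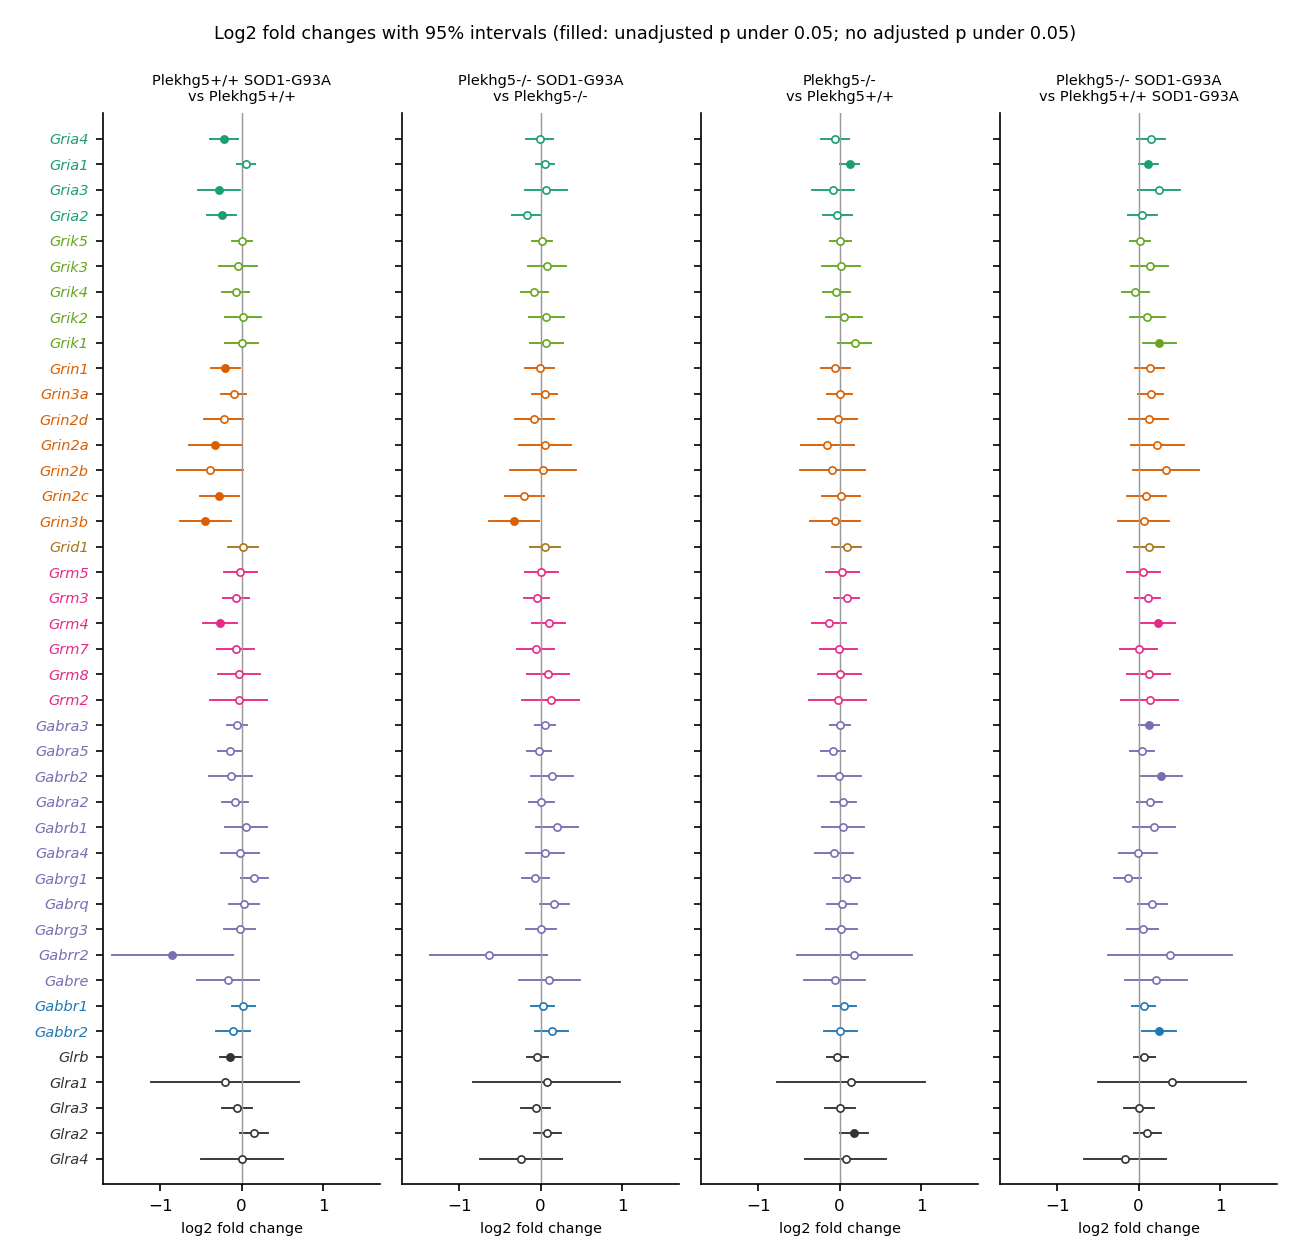
Log2 fold changes of 41 tested receptor genes with their 95% intervals (edgeR) in 4 comparisons, ordered by receptor family and level, with filled points at an unadjusted p under 0.05. In the first panel 10 points are filled and all lie left of 0, in the last 6 are filled and all lie right of 0, and these panels share the Plekhg5+/+ SOD1-G93A libraries with opposite signs.

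Grin3b encodes GluN3B, a glycine-binding NMDA receptor subunit known for its expression in MNs. It was at 7.63, 7.97 and 9.095 CPM in the Plekhg5+/+ libraries and at 5.03, 6.74 and 6.37 CPM in the Plekhg5+/+ SOD1-G93A libraries. The groups did not overlap, and the log2 fold change was −0.45 ± 0.14 (SE, adjusted p = 0.121), or −0.20 when scaled to neuronal markers. Without Plekhg5 the level was 7.94, 7.96 and 7.83 CPM, and with the transgene and without Plekhg5 it was 6.98, 4.98 and 6.91 CPM. All 6 mice with the transgene thus lay below all 6 mice without it. Such a separation of 6 from 6 mice, toward lower values, was seen in 0.288% of all genes tested, and Grin3b was the one member with it.

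Gria2 had 277, 303 and 312 CPM in Plekhg5+/+ mice and 257, 249 and 247 CPM in Plekhg5+/+ SOD1-G93A mice. These groups did not overlap either, with a log2 fold change of −0.25 ± 0.083 (adjusted p = 0.138), which was 0.0093 when scaled to neuronal markers. Without the first Plekhg5-/- library, which enters the estimate of the spread, its adjusted p was 0.0354. Plekhg5-/- mice had 249, 319 and 306 CPM and Plekhg5-/- SOD1-G93A mice 252, 269 and 255 CPM, so that the first Plekhg5-/- mouse lay below the 3 Plekhg5-/- SOD1-G93A mice and the other Plekhg5-/- mice above them.

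Grm4, a presynaptic metabotropic receptor coupled to inhibitory G proteins, had 44.8, 49.6 and 50.01 CPM in Plekhg5+/+ mice and 39.5, 45.3 and 35.2 CPM in Plekhg5+/+ SOD1-G93A mice. The second transgenic mouse overlapped with the controls, and the log2 fold change was −0.27 ± 0.095 (adjusted p = 0.155), with an adjusted p of 0.0451 without that mouse. Scaled to neuronal markers it was −0.021. Plekhg5-/- mice had 39.3, 46.6 and 46.0 CPM and Plekhg5-/- SOD1-G93A mice 49.5, 47.1 and 44.7 CPM, which overlapped with the Plekhg5+/+ mice.

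The groups also did not overlap for Glrb, Grin2a, Grin2c and Gabre, among others, and 7 of 46 members in all were separated toward lower values and 0 toward higher ones, where 9.02% of all genes were separated toward lower and 11.6% toward higher values. Glrb, the most abundant member, had 407, 399 and 426 CPM in Plekhg5+/+ and 350, 398 and 372 CPM in Plekhg5+/+ SOD1-G93A mice, with a log2 fold change of −0.14 ± 0.058 (adjusted p = 0.226). Grin1 had 288, 340 and 346 CPM against 286, 292 and 267 CPM (log2 fold change −0.20 ± 0.082, adjusted p = 0.211), and Gria4, which gives AMPA receptors fast kinetics, had 204, 243 and 239 CPM against 193, 214 and 182 CPM (log2 fold change −0.22 ± 0.079, adjusted p = 0.156). In both, the first Plekhg5+/+ mouse lay among the transgenic mice. Scaled to neuronal markers, the direction of these 3 genes turned, with 0.11 for Glrb, 0.048 for Grin1 and 0.028 for Gria4. Gabrr2 had the largest log2 fold change of all members, −0.85 ± 0.35 (adjusted p = 0.215), at levels of 1.64, 2.31 and 2.05 CPM against 0.652, 0.825 and 1.83 CPM. Without the third Plekhg5+/+ SOD1-G93A mouse its value was −1.43 and the adjusted p 0.0281.

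Gabbr1, Grm5, Grik5 and Grid1, which lead their families, overlapped between the genotypes in each pairwise comparison. Gabbr1 had 467, 466 and 492.5 CPM in Plekhg5+/+, 469, 491 and 524 CPM in Plekhg5-/-, 505, 496 and 446 CPM in Plekhg5+/+ SOD1-G93A and 522, 504 and 483.5 CPM in Plekhg5-/- SOD1-G93A mice. Grm5, a metabotropic receptor of the group that activates phospholipase C, had 112, 123 and 131 CPM, 109, 129.8 and 135 CPM, 131, 124 and 107.5 CPM and 119.8, 125 and 132 CPM in the same order. Both were thus as variable within a genotype as between genotypes. Grik5, a kainate receptor subunit that needs a partner to form a channel, had 84.0, 90.4 and 93.03 CPM, 83.7, 91.7 and 93.3 CPM, 91.1, 87.95 and 89.3 CPM and 92.3, 90.4 and 88.8 CPM. Grid1, a delta receptor subunit that binds cerebellins, had 49.2, 54.0 and 57.8 CPM, 56.4, 57.1 and 57.4 CPM, 56.2, 59.4 and 47.1 CPM and 60.8, 56.2 and 60.4 CPM. The lowest Grid1 levels were thus in 1 Plekhg5+/+ and 1 Plekhg5+/+ SOD1-G93A mouse.

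Other transcripts moved along with these values. The 12 neuronal markers were all lower in Plekhg5+/+ SOD1-G93A than in Plekhg5+/+ mice, by a median log2 fold change of −0.14, with a summed level of 9651 to 11320 against 12150 to 12190 CPM, and 0 of them passed the test. All 8 MN markers were lower, by a median of −0.34 and with 233 to 304 against 331 to 337 CPM in sum, and Chodl, a marker of fast MNs, passed the test (−0.83 ± 0.18, adjusted p = 0.0387). Of 9 microglial markers 8 were called higher, at a median of 1.13 and with 597 to 1107 against 326 to 367 CPM in sum. The largest of these were Cd68, a lysosomal protein of phagocytes (2.36 ± 0.30, adjusted p = 0.0125), the complement genes C1qa (1.58 ± 0.29, adjusted p = 0.0243) and C1qb (1.36 ± 0.27, adjusted p = 0.0323), and Aif1 (1.41 ± 0.26, adjusted p = 0.0198). The summed astrocytic markers were at 7220 to 10470 against 5873 to 6034 CPM, with Gfap and Sox9 called higher out of 8. No marker of these lists was at 0 in all libraries. The part of these shifts in the values of the receptor genes was not tested beyond the scaling to neuronal markers.

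The transgene was then examined in mice without Plekhg5. Between Plekhg5-/- SOD1-G93A and Plekhg5-/- mice 0 of 46 members passed the test with edgeR and 0 with DESeq2 (0.00496% of all genes did with edgeR and 0.222% with DESeq2), and 1 member, Grin3b, had an unadjusted p under 0.05 toward lower values, where 2.1% of all genes did. That count was 0 without the second library of either genotype, 3 without the third Plekhg5-/- library (2 of them toward higher values) and 2 without the third library of either SOD1-G93A genotype. The median of the members was 0.037, with 16 below and 30 above 0. Grin3b had a log2 fold change of −0.33 ± 0.14 (adjusted p = 0.899) and Gria2 one of −0.17 ± 0.083 (adjusted p = 0.946). Gabrq, the theta subunit of the GABA-A receptor, had 12.4, 14.8 and 14.9 CPM in Plekhg5-/- mice and 14.8, 16.4 and 16.2 CPM in Plekhg5-/- SOD1-G93A mice (log2 fold change 0.17 ± 0.084, adjusted p = 0.949). Gabrr2 and Grin3b were separated between the groups toward lower and Gabrb1 toward higher values, where 5.24% and 7.26% of all genes were.

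Markers of Schwann cells, which belong to nerve roots, had a median log2 fold change of 2.11 over 3 genes in this comparison, with 221 to 339.9 CPM in sum in Plekhg5-/- SOD1-G93A against 45.9 to 91.5 CPM in Plekhg5-/- mice, and all 3 had an unadjusted p under 0.05. The 6 oligodendrocyte markers were all below 0 (median −0.21), 3 of them at an unadjusted p under 0.05. Neuronal markers were below 0 in 8 of 12 (median −0.010) and MN markers in 6 of 8 (median −0.070). Microglial markers were above 0 in 7 of 9 (median 0.24), astrocytic ones in 6 of 8 (median 0.11), those of oligodendrocyte progenitors in 4 of 4 (median 0.13) and endothelial ones in 5 of 5 (median 0.33). None of these genes passed the test with edgeR, and the part of the lists in the receptor values was not tested.

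Averaged over both Plekhg5 genotypes, 6 mice with the transgene were compared with 6 mice without it. With edgeR 0 of 46 members passed the test (1.22% of all genes), and 5 had an unadjusted p under 0.05, all toward lower values (5.33% of all genes): Gria2, Glrb, Gabrr2, Grin3b and Grin2c. The count was 10 without the first Plekhg5-/- library and 8 without either the first Plekhg5+/+ or the second Plekhg5+/+ SOD1-G93A library. Grin3b had a log2 fold change of −0.39 ± 0.10 (adjusted p = 0.0824) and Gria2 one of −0.21 ± 0.059 (adjusted p = 0.103), or −0.24 and −0.055 when scaled to neuronal markers. DESeq2, the tool of the study, called both with its default fit, Grin3b with −0.39 (adjusted p = 0.0177) and Gria2 with −0.21 (adjusted p = 0.0231), among 3.77% of all genes, and with its prior as well (3.93% of all genes). These were the only receptor genes called by DESeq2 in any of the 7 comparisons. Both calls thus depend on the tool, and the direction is the same with both tools. On data simulated for the transgene with Plekhg5, edgeR made 8 false calls and DESeq2 made 38. There edgeR recovered 76 and DESeq2 78 of 100 genes changed by a log2 fold change of 1. The simulated counts used the spread estimated by edgeR, and the mean effect was not simulated. These numbers therefore cannot decide whether the calls of Grin3b and Gria2 are false.

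**Figure D4:**
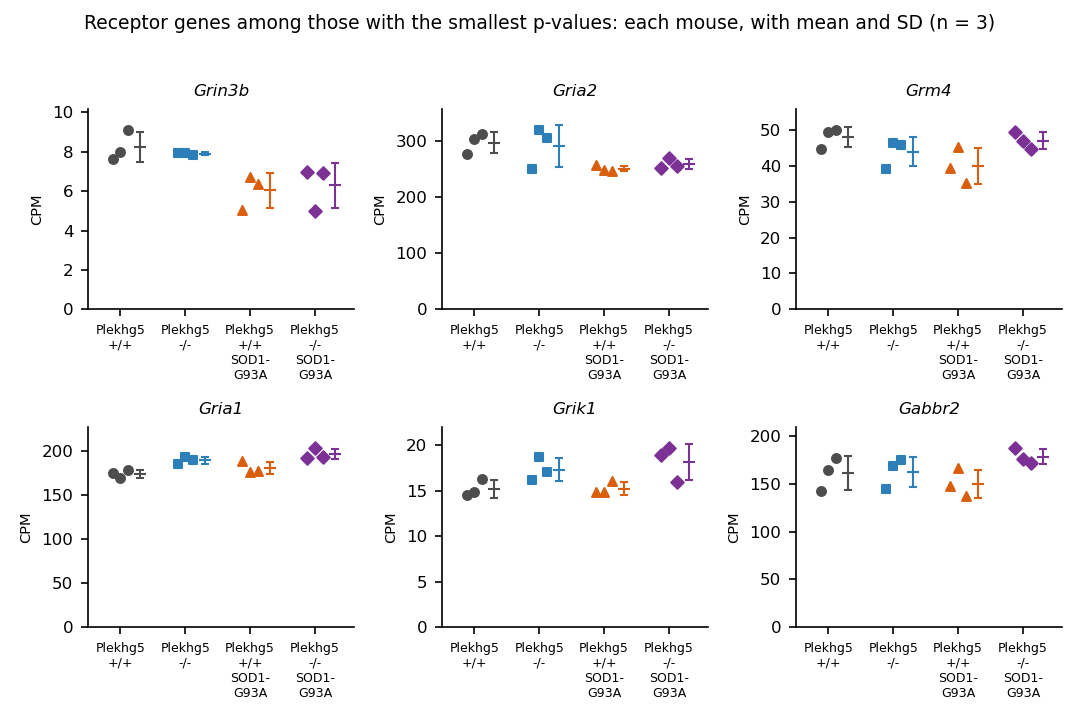
CPM of 6 receptor genes in each of 12 mice, with the mean and SD of each genotype (n = 3) beside the points and all axes starting at 0. For Grin3b the mice with the transgene lie at 4.98 to 6.98 CPM and those without it at 7.63 to 9.095 CPM, while the genotypes overlap for Grik1 and differ little in relation to their level for the other genes.

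Loss of Plekhg5 was compared without the transgene. With edgeR 0 of 46 members passed the test between Plekhg5-/- and Plekhg5+/+ mice (0.0298% of all genes) and with DESeq2 0 did (0.149%). The median log2 fold change was 0.0087, with 20 members below and 26 above 0 and all between −0.15 and 0.18. Gria1 and Glra2 had an unadjusted p under 0.05, both toward higher values (2.53% of all genes). The count was 0 without 1 of 6 libraries: the first or the second Plekhg5+/+, the second or the third Plekhg5-/- and the first or the third Plekhg5-/- SOD1-G93A library. It was 1 without the second library of either SOD1-G93A genotype. Gria1, the AMPA receptor subunit known for its part in activity-dependent receptor insertion, had 175, 169 and 178 CPM in Plekhg5+/+ and 185, 193 and 190 CPM in Plekhg5-/- mice (log2 fold change 0.12 ± 0.052, adjusted p = 0.929). Glra2, the alpha subunit that prevails before birth, had 12.1, 12.8 and 13.0 CPM against 14.6, 14.1 and 14.0 CPM (0.17 ± 0.078, adjusted p = 0.929). In both the groups were apart, and the count of 3 of 46 members apart toward higher values stood beside 4.71% of all genes. Grik1, a kainate receptor subunit of sensory and spinal neurons, had 14.5, 14.9 and 16.4 CPM against 16.2, 18.7 and 17.0 CPM (0.18 ± 0.093, adjusted p = 0.948). Schwann cell markers were below 0 in 3 of 3 (median −1.32) and microglial markers above 0 in 8 of 9 (median 0.27), with 0 called in either list, and their part in these values was not tested.

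In mice with the transgene, loss of Plekhg5 was accompanied by values above 0 for 41 of 46 members (17 of 46 when scaled to neuronal markers), again without a call. This comparison shares the Plekhg5+/+ SOD1-G93A libraries with that of the transgene in mice with Plekhg5, where they enter with the opposite sign. With edgeR 0 members passed the test between Plekhg5-/- SOD1-G93A mice and those with Plekhg5 (0.0347% of all genes) and with DESeq2 0 did (0.38%). The median was 0.125, beside −0.0097 over all genes, and turned to −0.017 when libraries were scaled to neuronal markers, which moved the median of all genes to −0.16. Relative to the median of all genes, 43 of 46 members were higher with both scalings. This count could hardly differ between the scalings, because a scaling moves all genes by nearly the same amount. At an unadjusted p under 0.05, 9 members were higher and 0 lower, where 3.59% of all genes were higher and 5.05% lower. Of these, 5 were GABA-A subunits, Gabra3 and Gabrb2 among them, and the others were Gabbr2, Gria1, Grik1 and Grm4. Leaving out 1 library moved this count to 14 without the first Plekhg5-/- or the second Plekhg5+/+ SOD1-G93A library, to 5, 2 or 4 without the first, the second or the third Plekhg5-/- SOD1-G93A library, to 2 or 3 without the first or the third Plekhg5+/+ SOD1-G93A library and to 5 without the second Plekhg5-/- library. The groups were apart for 11 members, all toward higher values, beside 9.47% of all genes.

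Grik1 had 14.9, 14.8 and 16.0 CPM in Plekhg5+/+ SOD1-G93A mice and 18.9, 19.7 and 15.95 CPM in Plekhg5-/- SOD1-G93A mice, with the third Plekhg5-/- SOD1-G93A mouse within the other group (0.25 ± 0.093, adjusted p = 0.517). Gabbr2, the GABA-B subunit that couples to G proteins, had 148, 166 and 137 CPM against 187, 176 and 172 CPM without overlap (0.25 ± 0.096, adjusted p = 0.523). Gabra3 had 155, 161 and 145 CPM against 165, 167 and 171 CPM (0.13 ± 0.057, adjusted p = 0.571). Scaled to neuronal markers, these values were 0.11 for Grik1, 0.10 for Gabbr2 and −0.019 for Gabra3. Compared with Plekhg5+/+ mice, the Plekhg5-/- SOD1-G93A mice were thus at a similar level of Gabra3 (155, 158 and 168 CPM).

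Neuronal markers moved in the same comparison, with 11 of 12 above 0, a median of 0.15 and 0 called. MN markers were above 0 in 8 of 8 (median 0.24, 256 to 361 against 233 to 304 CPM in sum) and microglial markers below 0 in 9 of 9 (median −0.60, 454 to 502 against 597 to 1107 CPM in sum), with 0 called in either list. Markers of Schwann cells had 221 to 339.9 CPM in sum in Plekhg5-/- SOD1-G93A mice, against 44.9 to 129 CPM with Plekhg5. The 5 endothelial markers were all above 0 (median 0.49) and 5 of 6 oligodendrocyte markers below 0 (median −0.18). Oligodendrocyte progenitor markers had a median of −0.011. Astrocytic markers were below 0 in 6 of 8 (median −0.26), with 3 at an unadjusted p under 0.05, 0 called and 6793 to 7062 against 7220 to 10470 CPM in sum. The part of these lists in the receptor values was not tested otherwise.

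Averaged over mice with and without the transgene, loss of Plekhg5 gave 0 calls among 46 members with edgeR (0.0546% of all genes) and 0 with DESeq2 (0.0534%). There were 4 members with an unadjusted p under 0.05, Gria1, Grik1 and Glra2 among them, all toward higher values (1.91% of all genes), with log2 fold changes between 0.12 and 0.22 and an adjusted p of 0.987 each. The count was 10 without the first Plekhg5-/- library, 7 without the third Plekhg5+/+ or the second Plekhg5+/+ SOD1-G93A library, and 2 without the first Plekhg5+/+ SOD1-G93A or the third Plekhg5-/- SOD1-G93A library. Whether the effect of the transgene differed between Plekhg5 genotypes was tested with the interaction term. It gave 0 calls among the members with edgeR, which called 0.0% of all genes, and 0 with DESeq2, which called 0.501%. Grm4 was the one member with an unadjusted p under 0.05 (0.37 ± 0.13, adjusted p = 0.460), toward a higher value as in 3.87% of all genes. This count was 8 without the first Plekhg5+/+ or the second Plekhg5+/+ SOD1-G93A library (1 of the latter 8 toward a lower value), 5 without the third Plekhg5-/- library and 2 without the third Plekhg5+/+ or the second Plekhg5-/- library (1 of 2 toward a lower value in both). The effects of the transgene in mice with and without Plekhg5 were thus not shown to differ for any member.

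The intervals bound what could have been missed. In the comparison of Plekhg5+/+ SOD1-G93A with Plekhg5+/+ mice the 95% interval of a member reached 0.20 to either side at the median, and 44 of 46 intervals lay within a log2 fold change of 1 in both directions. The exceptions were Gabrr2 (−1.6 to −0.10) and Glra1 (−1.12 to 0.71). A log2 fold change of 1 in either direction was thus outside the interval for the other 44 members, whereas changes of the size estimated for Gria2 and Grin3b could not be separated from 0 after adjustment over all genes.

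Proteins that work with these receptors were followed as 57 genes in 8 lists: 12 auxiliary subunits of AMPA receptors, 2 of kainate and 4 of GABA-B receptors, 17 excitatory and 9 inhibitory postsynaptic scaffold genes, 4 cerebellins, 7 genes of transmitter synthesis and vesicular loading and 2 chloride cotransporters. None of the 57 passed the test in any of the 7 comparisons with edgeR. Between Plekhg5+/+ SOD1-G93A and Plekhg5+/+ mice 5 had an unadjusted p under 0.05 toward higher and 7 toward lower values, beside 10.6% and 7.51% of all genes, at a median of −0.075, which is also the median of the receptor genes. The excitatory scaffold genes had a median of −0.10 with 15 of 17 below 0, and the inhibitory ones a median of −0.069 with 7 of 9 below 0. The AMPA auxiliary subunits had 6 of 12 below 0 and a median of −0.035, and those of kainate and GABA-B receptors medians of 0.048 and −0.16. Cerebellins, which bind delta receptors across the synapse, had a median of −0.039, transmitter synthesis and loading −0.055 and the chloride cotransporters, which set whether GABA and glycine inhibit, −0.084. For loss of Plekhg5 with the transgene, 6 of the 57 had an unadjusted p under 0.05 toward higher and 1 toward lower values, beside 3.59% and 5.05% of all genes, at a median of 0.12. Transmitter synthesis and loading had a median of 0.20 there, with 7 of 7 above 0. Scaled to neuronal markers, the median of the 57 genes was 0.18 for the transgene with Plekhg5, with 57 of 57 above 0, and −0.027 for loss of Plekhg5 with the transgene, with 39 of 57 below 0. Transmitter synthesis and loading stayed above 0 at the median in the latter (0.062, with 4 of 7 above 0).

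Glra1 had by far the widest spread of the abundant members. It was at 51.0, 182 and 163.5 CPM in Plekhg5+/+, at 104, 149 and 182 CPM in Plekhg5-/-, at 111, 145 and 87.6 CPM in Plekhg5+/+ SOD1-G93A and at 159, 135 and 164 CPM in Plekhg5-/- SOD1-G93A mice. The first Plekhg5+/+ mouse had less than every other mouse, and the levels span a ratio of 3.56 between the highest and the lowest library. The SD of log2 CPM within genotypes was 0.579, against a median of 0.109 over the 46 members, and 99.7% of the 11192 tested genes over 10 CPM had a smaller one. Its log2 fold changes, between −0.20 and 0.41 over the 4 pairwise comparisons, all had SEs of about 0.41 and passed no test (lowest adjusted p = 0.758).

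Glra1 and Grin2b were lowest in the 3 libraries that were also lowest in long transcripts, and Grin2a was lowest in 2 of them. Grin2b and Grin2a have 24886 and 20404 bases of exon sequence, but Glra1 has only 2413. The index used here is the mean log2 CPM of 4315 genes with over 6 kb of exon sequence minus that of 3776 genes under 1.5 kb, with the receptor genes left out and the mean over libraries set to 0. It was −0.23 in the third Plekhg5+/+ SOD1-G93A library, −0.22 in the first Plekhg5-/- library and −0.15 in the first Plekhg5+/+ library, and between −0.018 and 0.18 in the other 9. The 3 libraries held 87.6, 104 and 51.0 CPM of Glra1, 49.1, 51.4 and 58.7 CPM of Grin2b and 44.9, 44.4 and 57.4 CPM of Grin2a, against 111 CPM or more of Glra1, 58.9 CPM or more of Grin2b and 56.2 CPM or more of Grin2a in the others. What sets this index was not tested. The 3 Plekhg5-/- SOD1-G93A libraries lay close together at 0.038 to 0.077. With this index as a covariate, chosen after the values were seen, the median of the members was −0.033 for the transgene with Plekhg5 and 0.065 for loss of Plekhg5 with the transgene, and the number of members with an unadjusted p under 0.05 was 13 and 4.

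**Figure D5:**
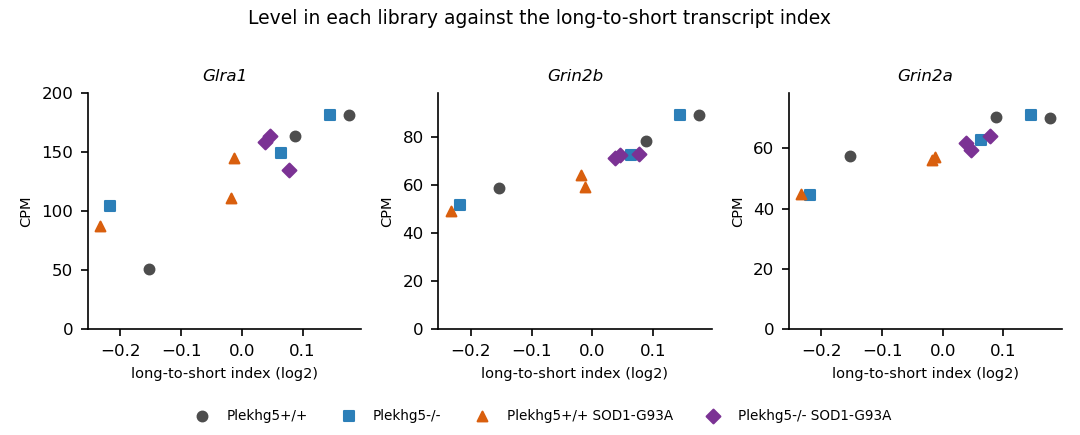
CPM of Glra1, Grin2b and Grin2a in each of 12 libraries against the long-to-short transcript index of the library, on the log2 scale, with genotypes distinguished by colour and marker. The 3 libraries with an index under −0.1 have the lowest Glra1 levels (51.0 to 104 CPM) and come from 3 different genotypes, and the levels of Grin2b are low in the same libraries.

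Chromosome 4, which holds Plekhg5, also holds 5 receptor genes. The nearest of these members, Grik3, lies 26.6 Mb from Plekhg5, and Grin3a, Gabbr2, Gabrr1 and Gabrr2 lie 102 to 119 Mb away. None of those tested was called in a comparison of Plekhg5 genotypes. Clusters of GABA-A genes on chromosomes 5, 7, 11 and X hold 14 of the 18 GABA-A members, and members of a cluster differed widely in level: on chromosome 11, Gabra6 had 0 counts in most libraries, whereas Gabrb2 had 10.7 ± 1.44 CPM per kb in Plekhg5+/+ mice.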

How the data were processed

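RNA of the spinal cord of 12 mice was sequenced as single-end reads from poly-A stranded libraries. Per the study's methods and the labels, adapters were removed with cutadapt 2.4, STAR 2.7.2b aligned the reads to GRCm38.p6 plus the human SOD1 cDNA, and featureCounts 1.6.4 counted exons by strand, with reads of several matches split into fractions. The values deposited by the authors are therefore estimated counts per gene, made with featureCounts and not normalized. 0 columns of counts remained without a sample.

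The deposited counts were rounded and fitted with edgeR 4.0.16 (R 4.3.3) in 1 robust quasi-likelihood model of 4 genotypes, after filterByExpr (20155 genes) and TMM, with Benjamini-Hochberg adjustment over all genes tested and a threshold of 0.05. CPM values use TMM library sizes. Alternatives were DESeq2 1.42.0 with and without a prior, other scalings and filters, covariates and each library left out. The fits were tested on simulated data. Values per library were given for the 3 members with the smallest p in each pairwise comparison and for the most abundant member of each family (CPM per kb, Plekhg5+/+), and list genes were named if they passed the test, at most 4 per list by size of change. Glra1, Gabrr2, Grin2a, Grin2b and all other members given single values were chosen after their values were seen. Some members are counted but not reported here by name. The members and lists were chosen with earlier results of these data known. The labels do not say more of the mice than their genotype and age. The p-values set differences between genotypes against the spread between mice of a genotype. Plots were made with Python 3.11.15 and matplotlib 3.10.9.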

Additional observations from a re-analysis of the deposited data

How the results depend on the processing

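The count of called members stayed at 0 in 6 of 7 comparisons with both versions of DESeq2, and in all 7 without the filter on low counts, with at least 10 counts in every library, with DESeq2's size factors and with an indicator of Y-linked transcripts, and in the 4 pairwise comparisons with only the 2 genotypes compared. For the mean effect of SOD1-G93A it was 2 with DESeq2 without a prior, 2 with a prior, 1 at an adjusted p under 0.1 (Grin3b) and 2 with the long-to-short transcript index, an alternative chosen after seeing the data (Gria2 at −0.18 and Gabrb1 at 0.17). Scaling to neuronal markers gave 7 calls toward higher values for SOD1-G93A with Plekhg5 (among them Gabrg1, Grik5, Gria1, Grid1, Gabbr1 and Glra2) and 1 for its mean effect (Glra2). It also moved the member medians to 0.17 for SOD1-G93A with Plekhg5, 0.12 for its mean effect, −0.017 for Plekhg5 loss with SOD1-G93A and −0.086 for the interaction, and turned Gria2 to 0.0093. By its construction this scaling shifts all genes: 4740 genes were then called for SOD1-G93A with Plekhg5, 4714 of them higher, against 498 and 422 with TMM, and DESeq2 called 1159 without and 1190 with a prior.

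With 1 library left out, the number called was 0 to 1 for SOD1-G93A with Plekhg5 and 0 to 1 for its mean effect. The calls were Gria2 in both without the first Plekhg5-/- library, Grm4 without the second Plekhg5+/+ SOD1-G93A library, and Gabrr2 in both without the third. Member medians ranged from −0.14 to −0.058 for SOD1-G93A with Plekhg5, −0.030 to 0.056 for SOD1-G93A without Plekhg5, −0.040 to 0.064 for Plekhg5 loss without and 0.094 to 0.17 with SOD1-G93A, −0.057 to 0.0050 and 0.035 to 0.093 for the mean effects of SOD1-G93A and Plekhg5 loss and 0.078 to 0.16 for the interaction. The cause of these shifts was not tested.

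Most same-numbered mice did not deviate together: 6 of 18 correlations of their deviations were over 0.1 (−0.20 to 0.43). The highest was between the first Plekhg5+/+ and the first Plekhg5-/- library. Mice of different numbers were not compared, and the numbers were not taken as pairs. With the replicate number as a block 0 members were called in each comparison, and the median was −0.072 for SOD1-G93A with Plekhg5 and 0.125 for Plekhg5 loss with SOD1-G93A.

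Gabrr2, Gabre, Glra4, Grm2 and Grin3b had few counts. Reads shared with other genes were counted as fractions, and Grm7, Grik2 and Grin2a had counts that were not whole in 10 of 12 libraries.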

Other observations

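The genes whose log2 CPM followed that of Glra1 most closely over the 12 libraries, among tested genes over 1 CPM, were Sv2c, a synaptic vesicle protein (Pearson r = 0.996), Lingo4 (0.993), the phospholipid flippase gene Atp8a2 (0.991), the mu opioid receptor gene Oprm1 (0.983) and Ksr2 (0.981). The ratio of the highest to the lowest library was between 2.47 for Atp8a2 and 3.81 for Oprm1, compared with 3.56 for Glra1. Sv2c ranged from 84.0 to 223 CPM and Oprm1 from 3.22 to 12.3 CPM. These are correlations over libraries of 4 genotypes, which share their depth and their content of long transcripts, and they are given as a description.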
